A study of Mus musculus with 8 samples.

Results

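The comparison described here is that of H3K27ac in small intestinal crypt cells of fasted mice with and without tetracycline. Per the labels, all mice were male C57BL/6J animals of 9 weeks. One group was fasted for 24 h and had no tetracycline, and the other was fasted for 24 h after 21 days of tetracycline, a broad-spectrum antibiotic that blocks bacterial protein synthesis. CUT&Tag, in which an antibody brings a transposase to a chromatin mark so that the DNA around it is cut and sequenced, was run with an H3K27ac antibody. Each group is 1 sample with 2 peak lists, so 4 of the 16 lists and 2 of the 8 samples of the series entered the comparison. The numbers 1 and 2 of the lists come only from the names under which they were deposited. The labels do not say whether the lists came from different mice, so the spread between them may be technical. Peaks of the 4 lists that overlapped by at least 1 bp were merged into 102888 regions. The members are the 2597 regions with a peak in both lists without tetracycline and neither with it, here called untreated-only, and the 964 regions with a peak in both lists with tetracycline and neither without it, here called tetracycline-only. All comparisons use only whether a peak was listed and how its score ranked, since no read counts were used and the depth of each list is unknown.

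Acetylation of lysine 27 of histone H3 is placed by the acetyltransferases p300 and CBP and marks active promoters and enhancers. Its acetyl group comes from acetyl-CoA, and histone deacetylases such as the sirtuins, which use NAD+, remove it. The crypt holds the intestinal stem cells, their dividing progeny and Paneth cells, and its epithelium meets bacterial products, short-chain fatty acids and altered bile acids. Fasting raises fatty acid oxidation and ketone body synthesis in intestinal stem cells through PPAR target genes such as Cpt1a. The title of the series names an axis of microbiome, metabolites and chromatin in fasting, which is the question this pair of groups bears on.

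The lists differed in size within each group. Untreated lists 1 and 2 held 68545 and 55415 peaks and covered 53.1 and 64.2 Mb, and tetracycline lists 1 and 2 held 56717 and 36737 peaks and covered 51.1 and 48.2 Mb. Peaks of 200 bp, the narrowest in these lists, made up 11.8% of untreated list 1 and at most 0.862% of the other 3. The log2 ratio of peak number, tetracycline over untreated, was -0.43 (exact permutation, two-sided, p = 0.67), and that of covered length was -0.24 (exact permutation, two-sided, p = 0.33). Covered length gave -0.41 without the lists numbered 1 and -0.06 without those numbered 2, and peak number gave -0.59 and -0.27 in the same order and -0.18 with peaks of at least 500 bp. With 2 lists against 2, no p below 0.33 was possible. All 12 epithelial marker genes, among them Epcam, Cdh1, Vil1 and Cdx2, carried H3K27ac in each of the 4 lists. Of 12 genes of other tissues, such as Alb and Gfap, 1 was marked in each list.

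Most regions did not separate the groups. A peak was present in all 4 lists at 22393 regions (21.8%), and 57.6% of regions had a peak in 1 list only. Untreated-only regions were 2.52% and tetracycline-only regions 0.937% of the merged regions. When every list was cut to its 32392 top-scoring peaks (equal peak number), the order turned, with 664 untreated-only and 1398 tetracycline-only regions. The base pairs shared by 2 lists, divided by those covered by either, came to 0.454 for the untreated pair and 0.512 for the tetracycline pair. Pairs of lists from different groups gave values from 0.433 to 0.564, so lists of the same group were no more alike (mean 0.483) than lists of different groups (mean 0.488). The most alike pair was list 2 of each group. Regions with a peak in untreated list 1 alone numbered 30485, more than in any other combination of lists. Which group had more regions of its own therefore depended on how many peaks of each list were kept, as the plot of counts by peak selection shows.

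**Figure D1:**
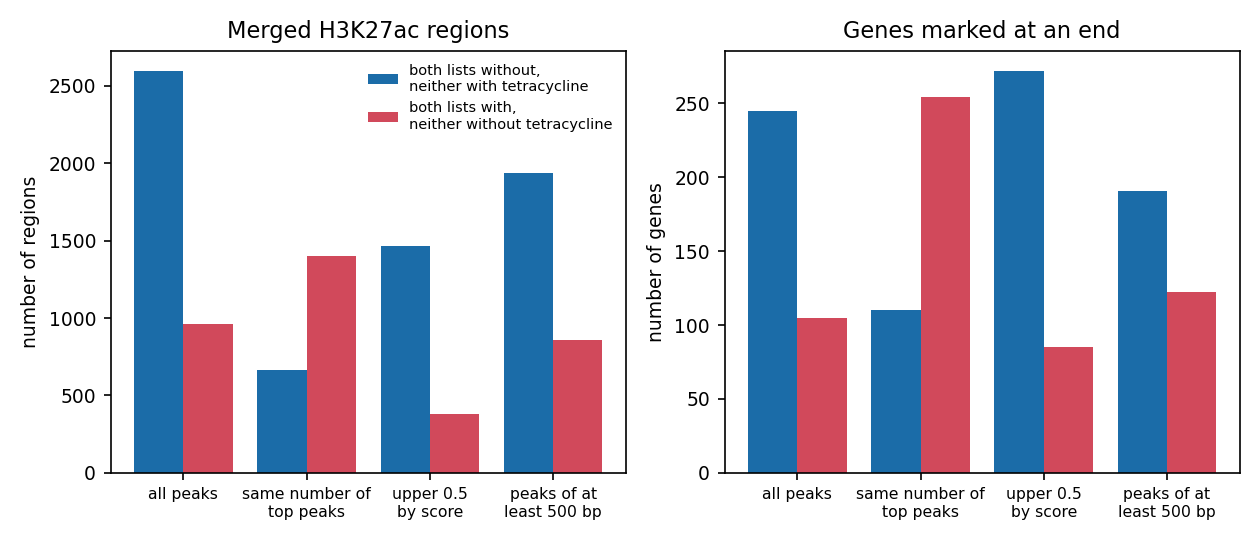
Numbers of merged H3K27ac regions (left) and of genes marked at an end (right) found in both lists of one group and neither of the other, in fasted mice without (blue) and with tetracycline (red), for 4 ways of selecting peaks. Untreated-only counts were higher with all peaks (2597 against 964 regions), with the upper 0.5 by score and with peaks of at least 500 bp, and lower at equal peak number (664 against 1398 regions).

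Both sets lay mainly away from gene ends. Of the untreated-only regions 88.4% and of the tetracycline-only regions 86.3% were more than 1 kb from every end of a protein-coding gene, against 66.3% of regions with a peak in all 4 lists and 85.9% of all merged regions. Of all untreated-only regions 55.8% lay within a gene and away from its ends, against 47.5% of tetracycline-only regions and 47.0% of all merged regions. They were also low in their own lists: the median score percentile was 33.1 and 29.4 in untreated lists 1 and 2 for untreated-only regions, and 36.6 and 20.5 in tetracycline lists 1 and 2 for tetracycline-only regions. Regions in all 4 lists had medians from 66.6 to 81.6. A score percentile is the share of a list's peaks that scored no higher, from the authors' own score, so the member regions came largely from the weaker peaks of each list.

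The 5 untreated-only regions of highest score away from gene ends had Hjv, Sorl1, Aff1, Itpkb and Fgd2 as their nearest genes. A region at chr9:42096449-42098030 (GRCm38) inside Sorl1, which encodes a sorting receptor, had score percentiles of 85.2 and 76.5 in untreated lists 1 and 2. A region at chr5:103817530-103818579 inside Aff1, a scaffold of transcription elongation complexes, had 85.8 and 74.9. Both had a peak in all 4 lists of fed mice as well. A region at chr1:180403008-180404899 inside Itpkb, an inositol trisphosphate kinase, had percentiles of 81.6 and 77.8 and differed from these in fed mice, with a peak in both fed lists without tetracycline and neither with it. The remaining regions of this group lay 27 kb from Hjv, a co-receptor in iron sensing, and 39.8 kb from Fgd2, an activator of the GTPase Cdc42. Counting by nearest gene, Aff1, Ahcyl2 and Myh9, the heavy chain of a non-muscle myosin, each had 6 untreated-only regions and no tetracycline-only region, of 38, 26 and 34 merged regions nearest to them. Foxp1, a transcription factor, had 5 of 77, and Atp8b1, a phospholipid flippase, had 4 of 35. In all, 19 genes had at least 4.

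The 5 tetracycline-only regions of highest score away from gene ends had Errfi1, Pros1, Gnat3, Gclm and Smc3 as their nearest genes. The first, at chr4:150807719-150809096, was 44.7 kb from Errfi1, an inhibitor of the epidermal growth factor receptor, with percentiles of 82.0 and 65.4 in tetracycline lists 1 and 2. The second, at chr16:62851757-62852720, lay 1.59 kb from Pros1, which encodes the anticoagulant protein S, with 86.8 and 55.8. It had a peak in both fed lists with tetracycline and neither without it, the same direction as in fasted mice. Regions followed inside Gnat3 (71.0 and 69.3), the taste G protein gustducin that tuft cells also use, and inside Gclm (70.6 and 64.0), a subunit of glutamate-cysteine ligase. A region 22.6 kb from Smc3, a cohesin subunit, had 72.8 and 60.2, and like those near Errfi1 and Gclm it had a peak in all 4 fed lists. No gene had more than 3 tetracycline-only regions nearest to it. Of the 7 genes with 3, Hpgd, which breaks down prostaglandins, had 32 merged regions, Mmaa, of the vitamin B12 pathway, had 9, and Dap, Armc2 and Nckap5 had 20, 24 and 44.

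The lists of fed mice and the H3K9ac lists took no part in choosing the regions, so they give a separate reading of the tetracycline difference. The mean share of untreated-only regions with an H3K27ac peak in fed mice was lower with tetracycline, and neither mark showed a difference beyond what 2 lists against 2 can test. In fed mice without tetracycline 21.7% and 39.6% of untreated-only regions had a peak in lists 1 and 2, and with tetracycline 12.1% and 35.9% did. The mean difference was -6.68 percentage points (exact permutation, two-sided, p = 0.67), and the groups overlapped. On these regions it was -9.665 points between the lists numbered 1 and -3.70 between those numbered 2. Leaving out the lists of 1 number also changed the regions, which were then chosen from 1 list a group. The difference was then -0.332 points without the lists numbered 1 and -2.39 without those numbered 2. Over all merged regions the fed shares were 28.1% and 38.3% without and 26.6% and 38.3% with tetracycline. At tetracycline-only regions the fed lists without tetracycline gave 30.2% and 57.4% and those with it 28.0% and 63.9%, a mean difference of 2.18 points (exact permutation, two-sided, p = 1). On these regions it was -2.18 points between the lists numbered 1 and 6.535 between those numbered 2. Without the lists numbered 2, with the regions chosen again, the difference was -1.43 points. Of the untreated-only regions 43.6% had a peak in no fed list, against 19.8% of tetracycline-only regions and 54.1% of all regions.

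H3K9ac in fasted mice was present at 17.0% and 12.2% of tetracycline-only regions in untreated lists 1 and 2, and at 22.3% and 17.3% in tetracycline lists 1 and 2. The tetracycline lists of this mark stood above the untreated lists here, by a mean of 5.19 points (exact permutation, two-sided, p = 0.33, the smallest possible). At equal peak number this difference was 2.0 points and the groups overlapped (exact permutation, two-sided, p = 1). Over all merged regions the H3K9ac shares were 19.95% and 16.2% without and 22.9% and 17.9% with tetracycline. The lists with tetracycline thus marked more regions on average there too, though the groups overlapped. At untreated-only regions the shares were 18.1% and 14.6% without and 19.5% and 17.0% with tetracycline, a mean difference of 1.95 points (exact permutation, two-sided, p = 0.67). Over all merged regions the mean share was higher with tetracycline as well, so the sign of this difference is not particular to untreated-only regions. The difference turned to -3.31 points at equal peak number. Benjamini-Hochberg adjustment over the 9 tests put every adjusted p of these exact permutation tests at 0.75 or 1.

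**Figure D2:**
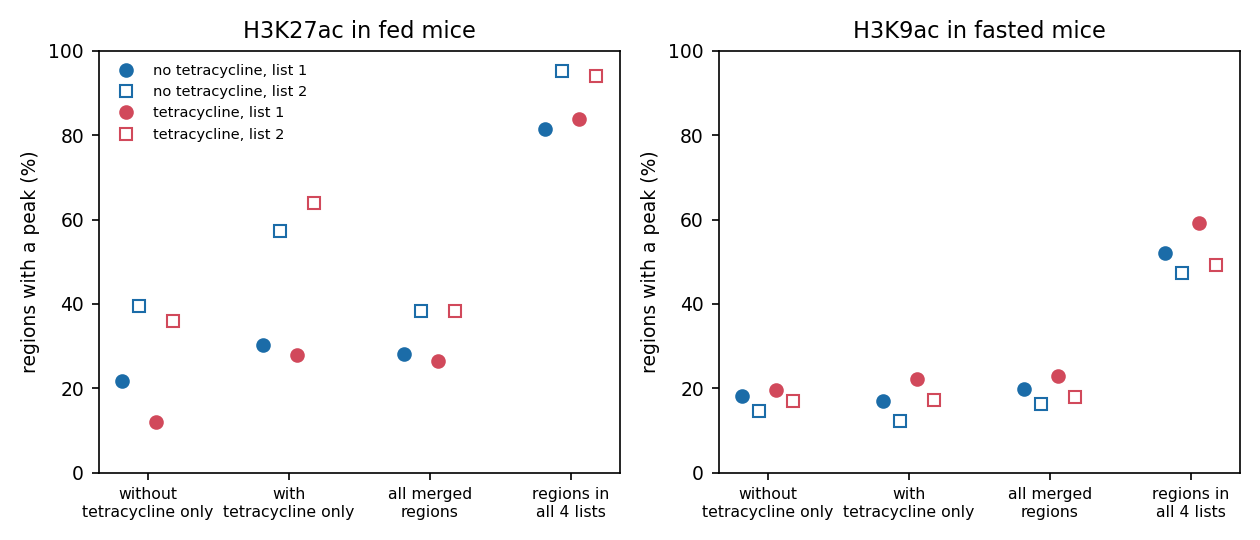
Percentage of regions that overlap an H3K27ac peak in fed mice (left) or an H3K9ac peak in fasted mice (right), for untreated-only, tetracycline-only, all merged and always-present regions. Each point is 1 peak list; at tetracycline-only regions the H3K9ac values were 17.0% and 12.2% without and 22.3% and 17.3% with tetracycline, while the fed H3K27ac points differ more between list numbers than between groups.

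At genes, the 2 groups shared most of their H3K27ac. Genes counted as marked had a peak no more than 1 kb from the first or last base of their model. Of 21887 protein-coding genes, 10759 and 11100 were marked in untreated lists 1 and 2 and 11091 and 9397 in tetracycline lists 1 and 2, and 8201 were marked in all 4. Both untreated lists and neither tetracycline list marked 245 genes (1.12%), and both tetracycline lists and neither untreated list marked 105 (0.48%). At equal peak number 110 and 254 genes were found, the opposite order, and 40 of the 245 and 44 of the 105 genes were called again. Without the lists numbered 2 the counts were 1137 and 1469, also in the opposite order, and without those numbered 1 they were 2082 and 379. For 178 of the 245 untreated-only genes (72.7%) and 90 of the 105 tetracycline-only genes (85.7%) a region of the same kind lay at the gene end. For the others the peaks at the gene end belonged to regions that also held a peak of the other group farther out, or to separate regions. Within 2.5 kb, 74 and 30 genes had a peak of the other group.

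Among the 10 untreated-only genes of highest score, those with a region of their own included a deacetylase and enzymes of translation. Sirt6, an NAD+-dependent deacetylase of histone H3, and its divergent neighbour Ankrd24 share 1 region, with score percentiles of 84.6 and 67.7 in untreated lists 1 and 2 and no peak within 2.5 kb in either tetracycline list. Hars and Hars2, the cytosolic and mitochondrial histidyl-tRNA synthetases, lie head to head and share the peak of untreated list 2; Hars had 87.9 and 78.1. At Sirt6 and Hars the mark was not absent under tetracycline in general, since both fed lists with tetracycline marked Hars and 1 marked Sirt6. Gm10778 had 77.5 and 72.4. Nbeal1, Vegfb and Klhl33, also among the 10, had no region of the same kind and had tetracycline peaks within 2.5 kb.

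Among the 10 tetracycline-only genes of highest score, Ostm1, Hsbp1, Pam and Cdc42ep3 had a region of their own and no untreated peak within 2.5 kb. Ostm1, a subunit of a lysosomal chloride transporter, had percentiles of 76.2 and 60.5 in tetracycline lists 1 and 2. Hsbp1, which binds heat shock factor, had 78.1 and 57.2, and Pam, which amidates peptide hormones, had 77.6 and 54.1. In fed mice both groups marked Ostm1 and Pam in both lists. Atg9b, a lipid scramblase of autophagosome formation, had 58.1 and 88.8, and Cdc42ep3, an effector of Cdc42, had 65.3 and 48.4. Zscan21, a zinc finger gene, had 66.9 and 65.6, and Fam169b had 65.1 and 68.7. Atg9b, Zscan21 and Fam169b had an untreated peak within 2.5 kb, and Lmbrd1, Pjvk and Btbd18 had no region of the same kind. The 10 genes of highest score in each direction, all chosen for high scores, had the same call at equal peak number.

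Promoters of 6 genes are shown because their start sites were marked in one group and not the other: Sirt6, Ccn1, Tlr2 and Mmp7 in both untreated lists only, Ostm1 and Hsbp1 in both tetracycline lists only. Ccn1 is a matricellular target of YAP in tissue repair, Tlr2 is a sensor of bacterial lipoproteins, and Mmp7 is the Paneth cell protease that activates defensins. Each sequence holds the 250 bases before the start site, from RefSeq on GRCm38.p6, 5′ to 3′ on the strand of the gene. Capitals mark matches to 11 short motifs described after the sequences.

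Sirt6, chr10:81627567-81627816, minus strand: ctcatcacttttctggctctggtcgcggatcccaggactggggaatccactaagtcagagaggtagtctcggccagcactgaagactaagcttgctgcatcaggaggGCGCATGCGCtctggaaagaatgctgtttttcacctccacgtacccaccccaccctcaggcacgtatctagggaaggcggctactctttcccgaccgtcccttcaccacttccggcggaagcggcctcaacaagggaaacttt

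Ccn1, chr3:145649986-145650235, minus strand: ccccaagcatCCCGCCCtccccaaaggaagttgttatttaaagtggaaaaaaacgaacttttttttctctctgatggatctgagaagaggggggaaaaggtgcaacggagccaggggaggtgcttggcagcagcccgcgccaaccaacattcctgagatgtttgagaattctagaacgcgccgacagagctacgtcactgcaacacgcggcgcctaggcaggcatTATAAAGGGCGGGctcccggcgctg

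Tlr2, chr3:83841609-83841858, minus strand: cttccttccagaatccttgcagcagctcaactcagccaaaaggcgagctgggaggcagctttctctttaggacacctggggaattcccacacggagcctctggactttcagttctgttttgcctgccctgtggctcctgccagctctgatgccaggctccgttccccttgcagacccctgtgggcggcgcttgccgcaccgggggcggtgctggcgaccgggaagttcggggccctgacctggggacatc

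Mmp7, chr9:7691840-7692089, plus strand: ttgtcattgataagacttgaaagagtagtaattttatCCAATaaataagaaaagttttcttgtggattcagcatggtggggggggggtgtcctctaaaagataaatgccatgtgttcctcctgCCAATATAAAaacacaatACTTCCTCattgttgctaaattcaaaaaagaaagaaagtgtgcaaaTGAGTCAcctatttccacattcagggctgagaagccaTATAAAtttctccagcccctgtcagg

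Ostm1, chr10:42678666-42678915, plus strand: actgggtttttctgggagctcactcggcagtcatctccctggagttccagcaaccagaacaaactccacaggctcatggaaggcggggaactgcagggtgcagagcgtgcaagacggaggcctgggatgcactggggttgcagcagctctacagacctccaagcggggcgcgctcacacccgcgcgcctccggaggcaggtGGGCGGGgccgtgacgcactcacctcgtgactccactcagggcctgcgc

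Hsbp1, chr8:119344288-119344537, plus strand: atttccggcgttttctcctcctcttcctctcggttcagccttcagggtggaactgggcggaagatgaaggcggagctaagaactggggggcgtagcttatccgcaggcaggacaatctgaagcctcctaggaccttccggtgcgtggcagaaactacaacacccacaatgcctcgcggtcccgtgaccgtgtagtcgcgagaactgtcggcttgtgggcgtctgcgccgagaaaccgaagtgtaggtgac

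The promoters differ in base composition. Mmp7 has 0 CpG sites and 38.0% G and C, and has TATA matches and CCAAT boxes, whereas Hsbp1 has 20 CpG sites and Ostm1 16. Sirt6 has 13, Ccn1 15 and Tlr2 11. Over the 160 genes with untreated-only marking at the start site the median was 10 CpG sites in 250 bases, and over the 90 with tetracycline-only marking it was 13.5. Genes marked at the start in all 4 lists had a median of 17, genes marked in none 3, and all 17492 promoters had 10. Neither set therefore reached the CpG content of the promoters marked in every list.

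Motifs were searched by their letters on both strands, and a match is a description of the sequence only. CCAAT was found in 36.3% of all promoters, the GC box GGGCGGG in 31.2%, TATAAA in 12.4%, CACGTG (E-box) in 6.64%, TGANTCA (AP-1) in 6.22%, GCGCATGC (NRF1) in 2.99% and GAGGAAGT (PU.1) in 2.18%. TTTATGG (CDX), TGACGTCA (CRE), CAAAGTCCA (HNF4) and GGGACTTTC (NF-kB) were in 2.06%, 2.01%, 0.366% and 0.269%. In Sirt6 the capitals are an NRF1 motif that reads on both strands, in Ccn1 GC boxes and a TATA motif, and in Ostm1 a GC box. In Mmp7 they are CCAAT boxes, TATA motifs, the first of which overlaps a CCAAT box, an AP-1 motif and a PU.1 motif. Tlr2 and Hsbp1 had no match. GC boxes were in 28.8% of untreated-only and 42.2% of tetracycline-only start sites, and TATA motifs in 10.6% and 3.33%.

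The fed lists without tetracycline marked some untreated-only genes in the same direction. Of the 245 untreated-only genes, 21 (8.57%) were also marked in both fed lists without tetracycline and neither with it, against 0.74% of all genes. The opposite pattern was found for 4 (1.63%, against 0.37% of all genes). They were Pgam5, Clns1a, Tmem235 and Telo2. The 21 include Wls, which carries Wnt ligands to the cell surface, with percentiles of 67.2 and 54.3 in the fasted untreated lists. They also include Cd44, a hyaluronan receptor and Wnt target of crypt cells, with 25.9 and 41.2, and Pglyrp2, which cleaves bacterial peptidoglycan, with 25.6 and 10.7. Genes known from leukocytes, picked out after the values were seen, were Ptpn7, Lime1, Cd72, Arhgap9, Cyba and Grap, of which Ptpn7, Cd72 and Cyba had no untreated-only region at the gene end. Of the 105 tetracycline-only genes, Ankrd6 alone had the same direction in fed mice (0.952%, against 0.37% of all genes). Rpap3 alone had the opposite (0.952%, against 0.74% of all genes). The marker genes of immune cells bear on the leukocyte genes, and in fed mice 8 and 6 of 13 were marked without tetracycline and 2 and 4 with it, against 7 and 6 and 7 and 7 in fasted mice. The part of immune cells in these results was not tested.

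Where a peak was listed in all 4 lists, the order of the regions by score could still differ. Each of the 22393 shared regions was ranked from 0 to 100 among them in each list, and a region was called higher in a group when its lowest rank there was at least 10 points above the highest in the other. Untreated lists ranked 1177 regions higher (5.26%) and tetracycline lists 1247 (5.57%). Ranks have the same mean in every list, so the near balance of these counts follows from the ranking and says nothing of the group as a whole. At gene ends 408 genes of 8342 with a shared region were higher in the untreated lists (4.89%) and 450 in the tetracycline lists (5.39%). The rank of a region is that of its best peak, which can lie beyond 1 kb of the gene end. Fed mice gave small differences in the same directions: at the regions higher without tetracycline the mean fed rank was 44.4 without and 41.2 with tetracycline, and at the regions higher with it 41.5 and 43.9. For each set, both fed lists of one group stood above both of the other in a test added after the first results (exact permutation, two-sided, p = 0.33, the smallest possible). The fed direction was the same at 57.0% of 823 and 58.2% of 981 such regions with a peak in all fed lists, against 51.1% and 48.9% of all shared regions.

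The shared region with the largest gap lay inside Tmco4 at chr4:139003591-139005537, with ranks of 84.8 and 87.3 in untreated lists 1 and 2 and 13.9 and 8.69 in tetracycline lists 1 and 2. The fed ranks there were 72.5 and 83.5 without and 52.8 and 55.2 with tetracycline, the same direction with a smaller difference. Regions at or near Kifc3, N4bp2l1, Rhbdd2 and Klf13, a transcription factor, followed. Fed ranks did not separate the groups at N4bp2l1 (33.4 and 35.6 against 10.7 and 63.5), and at Klf13 their mean lay in the other direction (2.13 and 13.95 against 5.83 and 23.3). In the other direction a region 9.69 kb from an end of Mmp15, a membrane-bound matrix metalloprotease, had ranks of 20.4 and 22.3 without and 79.2 and 78.3 with tetracycline. Its fed ranks, 43.3 and 65.4 without and 56.6 and 55.4 with tetracycline, overlapped. The next regions had Mier1, Galr1, Tas2r118 and Ppil4 as their nearest genes, the one assigned to Galr1 at a distance of 385.1 kb.

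At gene ends the largest gaps, a measure added after the first results were seen, were at Rhbdd2 and Lrp5 on the untreated side. Lrp5, a co-receptor for Wnt ligands, had ranks of 65.0 and 57.5 without and 10.4 and 14.2 with tetracycline. Mdc1, an adaptor of DNA break repair, had 66.9 and 63.9 against 23.9 and 5.46, and Sec11c, of the signal peptidase, had 65.0 and 77.0 against 28.4 and 22.9. The choice by gap ensures that every untreated rank of these genes lay above every tetracycline rank. On the tetracycline side Gabarapl1, an autophagosome protein, had 1.03 and 4.22 without and 57.4 and 49.3 with tetracycline. Mcm6, of the replicative helicase, had 12.2 and 7.71 against 59.0 and 52.0. Gsdme, a pore-forming gasdermin, had 26.6 and 36.2 against 76.0 and 88.8, and Enpep, an aminopeptidase of the brush border, had 27.5 and 35.1 against 76.5 and 74.5. The fed ranks at Gabarapl1 and Mcm6 were at most 11.9 in every list, with or without tetracycline.

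Stem cell genes were marked about equally in both groups, with a lower median rank under tetracycline. Of 15 such genes, 13 and 13 were marked in untreated lists 1 and 2 and 14 and 13 in tetracycline lists 1 and 2. None was in both lists of one group and neither of the other, against 1.12% untreated-only and 0.48% tetracycline-only of all genes. Of the 11 with a shared region, the median rank was 54.0 without and 31.5 with tetracycline, against 60.0 and 59.0 for all genes. Sox9, a transcription factor of crypt progenitors, had ranks of 57.6 and 51.6 without and 8.32 and 16.6 with tetracycline. Prom1, a membrane protein of stem and progenitor cells, had 37.7 and 72.6 against 18.9 and 3.6. Both were called higher in the untreated lists, and Olfm4, a marker of cycling stem cells, was not, with 41.3 and 28.1 against 4.6 and 25.5. In all, 2 of the 11 were called higher without and 0 with tetracycline. The shares over all genes with a shared region were 4.89% and 5.39%. At equal peak number neither Sox9 nor Prom1 had a shared region, so no rank could be given there, and 11 and 10 stem cell genes were marked without and 8 and 11 with tetracycline. Members on the other side were Rnf43, a ubiquitin ligase that limits Wnt signalling, with 65.3 and 53.3 against 67.3 and 77.8, and Slc12a2, an ion transporter, with 49.7 and 12.7 against 61.9 and 24.8. Neither was called. Ephb3 (8.53 and 23.2 against 53.5 and 9.4) and Znrf3 (81.7 and 26.3 against 67.7 and 47.6) overlapped between the groups. Lgr5, the receptor that defines crypt base stem cells, was marked in 1 tetracycline list only, at percentile 1.28. Ascl2 was marked in both untreated lists and 1 tetracycline list.

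Among genes of regeneration and YAP signalling a few members were called, too few to speak for the list. Of 15 genes, 7 and 8 were marked in the untreated lists and 6 and 7 in the tetracycline lists. Untreated-only marking was found for 1 (6.67%), against 1.12% of all genes, and tetracycline-only marking for 0, against 0.48%. Only 3 had a shared region, of which 2 were called higher without tetracycline, against 4.89% of all genes with a shared region. Yap1, the transcriptional co-activator itself, had ranks of 87.9 and 86.3 without and 51.6 and 27.4 with tetracycline, and was called higher in the untreated lists also at equal peak number. Krt7, a keratin, had 29.9 and 41.3 against 11.5 and 11.3, and at equal peak number its gap of 6.81 points was below the 10 needed for a call. Ccn1, whose promoter is shown above, was marked at percentiles of 18.6 and 48.9 in the untreated lists and in neither tetracycline list. It was marked in 1 untreated list at equal peak number. Clu, a marker of revival stem cells, was marked in all 4 lists, with ranks of 36.7 and 2.97 against 47.6 and 8.15, so the groups overlapped. Ly6a, a fetal-like repair marker, was marked in untreated list 1 only.

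Most fasting genes, but not all, were strongly marked in both groups. Of 20 genes of fatty acid oxidation and ketone body synthesis, 18 were marked in all 4 lists, and the median rank was 85.3 without and 87.0 with tetracycline. Cpt1a, which carries fatty acids into mitochondria, had ranks of 99.0 and 95.9 against 99.0 and 99.2, near the top of every list. Pdk4, a brake on pyruvate oxidation, had 88.9 and 95.9 against 97.9 and 94.5. Acadl, which oxidizes long-chain fatty acids, was called by rank, with 85.4 and 74.4 without and 97.0 and 96.8 with tetracycline. It was the only call among the 18 genes of this list with a shared region. Over all genes with a shared region 5.39% were called higher with tetracycline, so this 1 call says nothing of the list. Hcar2, a receptor for butyrate and ketone bodies, was marked in all 4 lists at ranks of 27.6 and 18.3 against 17.9 and 5.77. Lower ranks in this list were those of Acat1 (21.9 and 5.67 against 26.75 and 5.015) and Oxct1 (32.5 and 1.66 against 7.57 and 48.9). Fgf21, of this list, and Cd36 had no peak at a gene end.

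Microbe-induced defence genes were marked in slightly smaller numbers with tetracycline, and lists of microbial sensors and of metabolite receptors overlapped between the groups. Of 19 microbe-induced defence genes, none was in both lists of one group and neither of the other, against 1.12% untreated-only and 0.48% tetracycline-only of all genes. Marked members were 9 and 10 without and 7 and 8 with tetracycline. These counts were 5 and 9 without and 4 and 8 with it at equal peak number, so the groups overlapped. Dmbt1, a mucosal scavenger protein, ranked at 36.5 and 42.3 without and 12.9 and 17.6 with tetracycline, and its gap of 9.72 points at equal peak number missed the call. Reg3b, a bactericidal lectin, was marked in both untreated lists and 1 tetracycline list, and Reg3g, its close paralogue, in 1 list of each group. Of 16 microbial sensors 10 and 11 were marked without and 11 and 8 with tetracycline. Tlr2 was untreated-only, at percentiles of 43.0 and 18.5, and had no peak in any list at equal peak number. Ffar4, a receptor for long-chain fatty acids in a list of 18 metabolite receptors and Ahr targets, behaved likewise at 39.8 and 31.4, and that list had 8 and 9 members marked without and 10 and 8 with tetracycline. Ahr itself, the receptor for bacterial indoles, was marked in all 4 lists. Cyp1a1, its target, had no peak at either end of its gene model, though the start site in the promoter table was marked in all 4 lists.

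By rank, 1 of 19 clock and fat uptake genes with a shared region and 1 of 6 bile acid genes were called. Of the mitochondrial stress and mitochondrial ribosomal protein genes, 2 of 12 and 1 of 12 were. Over all genes with a shared region 4.89% were called higher without and 5.39% higher with tetracycline. Calls in such small numbers therefore say nothing of the lists. Nfil3, a clock-controlled factor that microbes induce in gut epithelium, had ranks of 73.0 and 64.2 without and 75.4 and 47.6 with tetracycline, and the groups overlapped. Tef, a clock output factor, had 62.4 and 49.3 against 31.0 and 15.1. Slc10a2, the ileal bile acid transporter, had a region ranked higher with tetracycline, with 33.9 and 51.8 against 78.9 and 75.7. Its peaks within 1 kb of a gene end did not follow this order. They were absent in untreated list 1, and had percentiles of 78.6 in untreated list 2 and 3.73 and 56.7 in the tetracycline lists. Atf5, a factor of the mitochondrial stress response, had 39.3 and 52.8 against 80.9 and 74.5. Hspd1, a mitochondrial chaperone, had 57.7 and 12.7 against 95.6 and 69.5. Mrpl4, a mitochondrial ribosomal protein, had 26.9 and 16.4 against 46.1 and 54.6. Its peaks within 1 kb of a gene end were in list 1 of each group only, at percentiles of 3.16 without and 75.65 with tetracycline. Slc10a2, Atf5, Hspd1 and Mrpl4 were called in the same direction at equal peak number. Acly, which makes acetyl-CoA for histone acetylation, was higher in the untreated lists, with 52.3 and 73.9 against 40.0 and 31.6. Atf4 was marked in all 4 lists and Fgf15 in none. Of 24 mitochondrial ribosomal protein genes 18 and 20 were marked without and 19 and 16 with tetracycline. Of 18 mitochondrial stress genes 13 and 15 were marked without and 14 and 13 with it. Of 18 xenobiotic genes 14 and 16 against 16 and 15 were marked, and of 8 MHC class II genes 4 and 4 against 6 and 2; Ciita, their activator, was marked in untreated list 1 only.

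**Figure D3:**
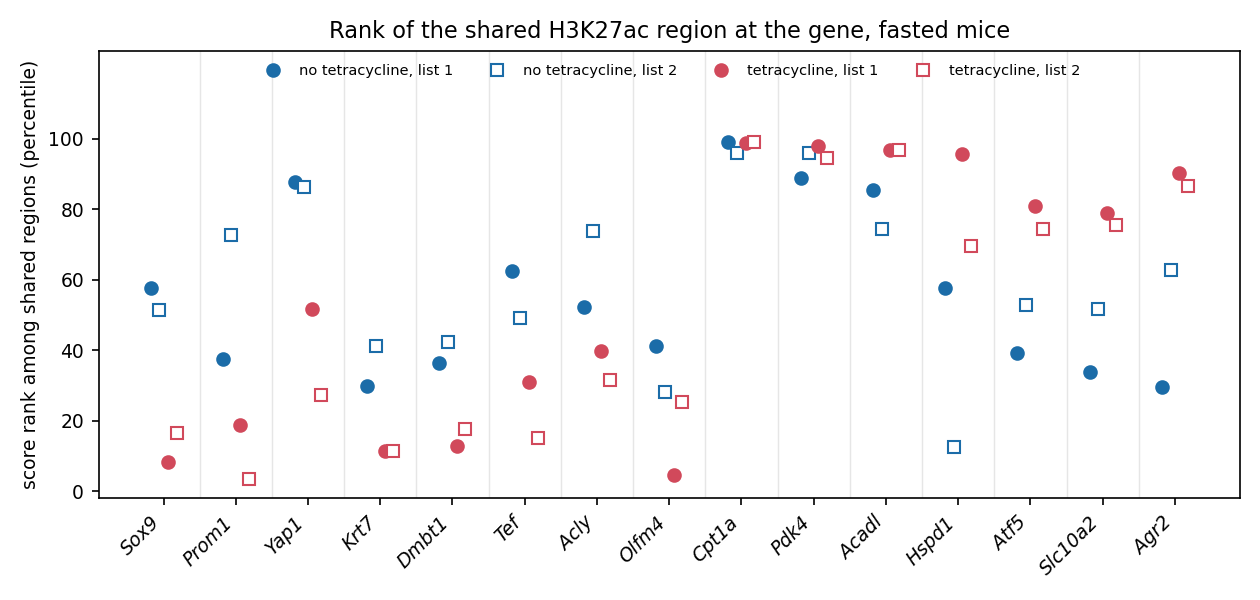
Rank of the shared H3K27ac region at the end of 15 genes among the shared regions, from 0 (lowest score) to 100 (highest), with 1 point per list of fasted mice. A rank is that of the best peak in the region, which for Slc10a2 lay beyond 1 kb of the gene ends in untreated list 1 and in both tetracycline lists. With all peaks Sox9, Prom1, Yap1, Krt7, Dmbt1, Tef and Acly were called higher without tetracycline, Acadl, Hspd1, Atf5, Slc10a2 and Agr2 higher with it, and Olfm4, Cpt1a and Pdk4 were not called.

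**Figure D4:**
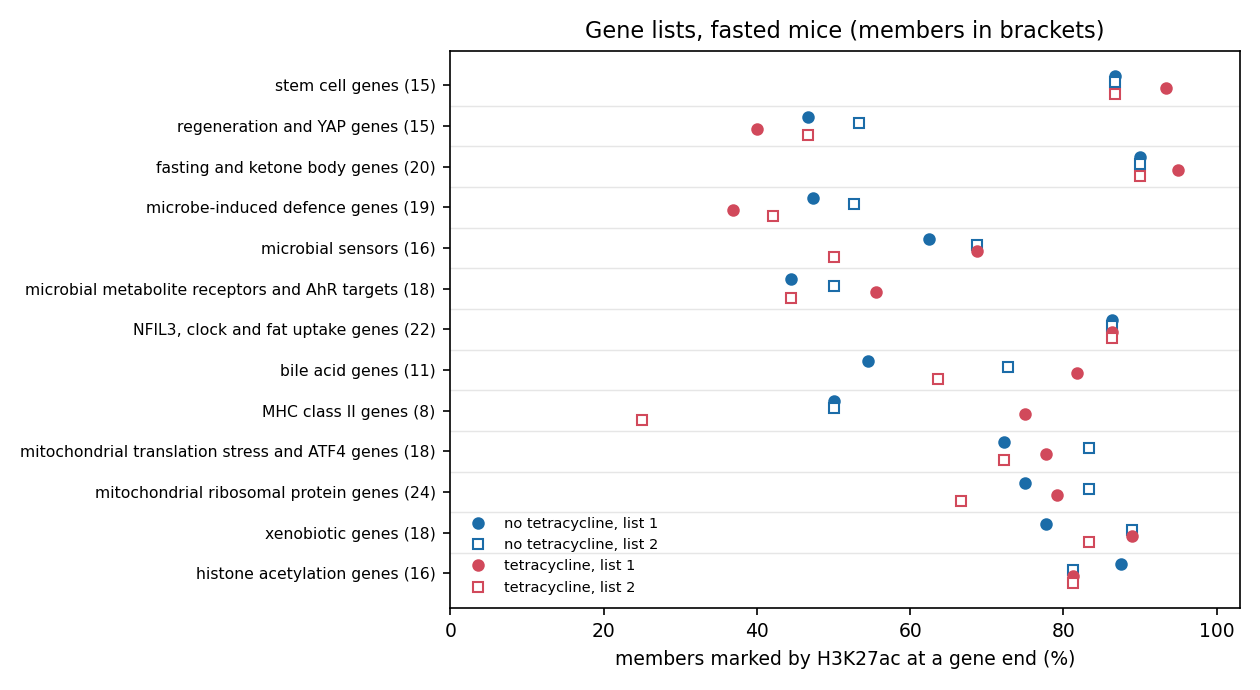
Percentage of the members of 13 gene lists marked by H3K27ac within 1 kb of a gene end, with 1 point per list of fasted mice. Fasting and clock genes were marked for most members in every list, and the points of the groups overlap or touch in all lists but the microbe-induced defence genes.

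Markers of most cell types a crypt preparation can hold were marked in similar numbers. The groups did not overlap for the few stromal markers, given below, or for tuft markers. Of 8 tuft markers 0 and 0 were marked without and 1 and 1 with tetracycline. These were different genes, Ptgs1 in tetracycline list 1 and Trpm5 in tetracycline list 2, so no tuft marker was marked in both. A region at Trpm5 had a peak in all 4 lists, with ranks of 57.35 and 48.5 against 57.9 and 43.9. Over all genes 6.17% were marked in more tetracycline than untreated lists and 11.8% in more untreated lists. Enteroendocrine markers were marked at 2 and 3 against 2 and 2 of 11. Of 9 Paneth markers 3 and 2 were marked without and 2 and 1 with tetracycline, with Mmp7 untreated-only at percentiles of 59.9 and 24.8. Mmp7 was marked in 1 untreated list at equal peak number, and within 2.5 kb the groups marked it equally. Of 8 goblet markers 6 and 4 were marked without and 4 and 4 with tetracycline, and Agr2, a disulphide isomerase of goblet cells, ranked higher with tetracycline (29.7 and 62.9 against 90.4 and 86.5). Krt18, a keratin of the whole epithelium, had 8.69 and 33.8 against 48.7 and 47.4. Mature enterocyte markers were marked at 9 and 10 against 9 and 8 of 10. Of 13 immune markers 7 and 6 against 7 and 7 were marked, and Cd3e, a subunit of the T cell receptor complex, was tetracycline-only at percentiles of 50.7 and 55.1 and kept this call at equal peak number. Of 11 stromal markers 2 and 2 against 1 and 0 were marked, with Vim untreated-only at 14.7 and 13.2 and in no list at equal peak number. Fewer cells of a type and less acetylation per cell cannot be told apart in these samples.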

How the data were processed

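Peaks were called by the authors in each library, and each deposited list gives positions, a MACS peak name and a score of at least 50 with no stated unit. This score served for ranking and filtering inside a list. FastQC, Bowtie, SAMtools and the build mm10 are named, without versions, in the submitters' processing notes. The names of the deposited lists call the data downsampled. The version, cutoff and control of MACS are not given in the sources used here.

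Chromosomes 1 to 19, X and Y were used, with 21887 protein-coding genes and 17492 promoters from RefSeq tables for GRCm38.p6. Differences between groups of lists were tested by exact permutation over 6 arrangements of the labels. A separate test of whether the tetracycline difference in peak number differed between fasted and fed mice gave -0.36 on the log2 scale (exact permutation over 36 arrangements, p = 0.56). Counting was tested on simulated lists. Tools were matplotlib 3.10.9, scipy 1.17.1, pandas 2.3.3 and numpy 2.4.6 under Python 3.11.15. H3K9ac lists of fed mice were not used.

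Genes named are up to 10 per direction by mean score percentile, up to 5 distal regions, 5 loci and 5 shared regions by size, up to 4 members of each gene list, and 18 genes fixed by name, some of which, like some ranked genes, are not reported here. The members and lists were chosen with earlier results of these data known. Ranks at gene ends, the check of gene calls against regions, the genes repeated in fed mice and the motifs were added after first results were seen. The rule for promoters to print was changed once after its first choice was seen, and their length was then shortened. Alternatives were other peak selections, overlaps, windows, rank gaps, leaving out the lists of 1 number, and pairing by list number.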

Additional observations from a re-analysis of the deposited data

How the results depend on the processing

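Of 127 recomputed values of the region, gene and rank counts, ratios and differences, 96 stayed within the limits set, 28 moved and 3 changed sign. At equal peak number, untreated-only regions fell to 664, untreated-only genes to 110 and tetracycline-only genes rose to 254, and the H3K9ac difference at untreated-only regions turned to -3.31 points. That setting fixes peak number, so no ratio of it was computed. With the upper 0.5 by score, regions were 1464 and 377 and shared regions higher in rank 763 and 802. With peaks of at least 500 bp the H3K9ac difference at untreated-only regions was -0.129 points. Marking at the start site only gave 160 untreated-only genes. A rank gap of 20 points left 363 and 402 regions and 137 and 147 genes. Leaving out the lists of 1 number gave 22313 to 36610 untreated-only and 4269 to 24676 tetracycline-only regions, 1137 to 2082 and 379 to 1469 genes, 8173 to 8745 and 8389 to 8679 shared regions, and 2465 to 2605 and 2265 to 2622 genes by rank; counts rise because 1 list a group calls more. At tetracycline-only regions chosen again from 1 list a group, the fed difference was -1.43 points without the lists numbered 2. Without those numbered 1 it was 2.81. List numbers are not shown to pair samples. A replicate block on them left the differences as they were, for example -0.43 for peak number (exact permutation, p = 0.5, the smallest possible). Of the recomputed values for gene lists 22 of 91 moved, and for single genes marked 40 of 182. Genes named for a rank difference kept its sign in all 108 values that could be computed, which their choice favours. At equal peak number Krt7 and Dmbt1 lost the call, and Prom1, Sox9 and Krt18 had no shared region. Depth was unknown, so absence of a peak is not absence of the mark.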

Other observations

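Some genes of immune cells lay in both sets, and they were chosen after their values were seen. Spi1, which encodes the myeloid factor PU.1, was untreated-only at percentiles of 28.2 and 0.0108, Inpp5d, a phosphatase of leukocyte signalling, at 71.6 and 50.8, and Plek, a platelet and leukocyte protein, at 73.9 and 15.3. Tetracycline-only genes included Klrd1, a natural killer cell receptor, at 28.5 and 47.3, and Tcf7, a Wnt-responsive factor of T cells, at 32.2 and 31.0.

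Single genes from the 105 tetracycline-only genes (0.48% of all genes) were likewise chosen after their values were seen and do not stand for a pathway. At equal peak number 44 of the 105 were called again, and whether these genes were among them is not given here. Cldn4, a tight junction claudin, had percentiles of 61.0 and 38.5 in tetracycline lists 1 and 2, Notch2, a receptor of progenitor fate, 45.5 and 10.5, and Tert, the telomerase catalytic subunit, 4.07 and 17.1. In fed mice, Cldn4 was marked in both lists without tetracycline and 1 list with it.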
